A study of Mus musculus with 4 samples.

Results

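The prostaglandin and leukotriene pathway was followed through 10 genes chosen by name: Pla2g4a, Ptgs1, Ptgs2, Ptges, Ptger2, Ptger4, Alox5, Alox5ap, Lta4h and Ltc4s. All 10 were listed in both deposited tables, which together name 15881 genes. The cells were BMDCs, dendritic cells that are grown in culture from bone marrow, from C57BL/6 mice aged 8 weeks. Their RNA was read by strand-specific mRNA sequencing, with 1 library in each of 4 groups. The groups were GOLPH2-/- (KO) cells that received IFN-gamma for 16 h and LPS, a bacterial cell wall component, for the following 4 h; wild type (WT) cells given the same; KO control cells; and WT control cells. The stimulated groups are called stimulated and the control groups unstimulated. GOLPH2 is a Golgi membrane protein encoded by Golm1. The labels do not give how the allele was made, how many mice gave cells to a culture, or whether both states of a genotype came from the same mice.

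Prostaglandins and leukotrienes are short-lived lipid mediators made from arachidonic acid. A cytosolic phospholipase releases the acid from membranes; cyclooxygenases and a terminal synthase turn it into prostaglandin E2, while 5-lipoxygenase with its helper protein turns it into leukotriene A4, from which leukotrienes B4 and C4 are made. In dendritic cells prostaglandin E2 acts back on the cell through its receptors and is known for shaping migration and cytokine output, and cysteinyl leukotrienes are known for a part in their migration.

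For 3 members the sequence before and at the start of the gene is shown: Ptgs2 and Ptges, the members with the highest levels and the highest ratios of stimulated over unstimulated cells, and Alox5, the member with the highest ratio of KO over WT. Each window runs 5′ to 3′ along the gene and holds 250 bases before the start and 50 from it (RefSeq, GRCm38.p6). The RefSeq start used for Ptges lies inside the span that GENCODE M21 gives this gene, whose outermost start is farther upstream; for Ptgs2 and Alox5 both annotations give the same start. Capitals mark matches to 6 motifs searched on both strands: the C/EBP palindrome TTGCGCAA, the cyclic AMP response element core TGACGT, the E-box CACGTG, the GC box GGGCGG, the NF-kB motif GGNNTTTCC and the TATA box TATAAA.
Ptgs2 promoter window (chr1:150099781-150100080, + strand): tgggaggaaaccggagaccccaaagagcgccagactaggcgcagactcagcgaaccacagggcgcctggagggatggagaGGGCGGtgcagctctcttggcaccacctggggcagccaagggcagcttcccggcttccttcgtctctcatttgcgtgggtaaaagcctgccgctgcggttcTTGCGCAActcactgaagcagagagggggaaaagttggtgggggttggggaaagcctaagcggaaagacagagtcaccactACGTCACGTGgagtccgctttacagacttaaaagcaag
Ptges promoter window (chr2:30903248-30903547, - strand): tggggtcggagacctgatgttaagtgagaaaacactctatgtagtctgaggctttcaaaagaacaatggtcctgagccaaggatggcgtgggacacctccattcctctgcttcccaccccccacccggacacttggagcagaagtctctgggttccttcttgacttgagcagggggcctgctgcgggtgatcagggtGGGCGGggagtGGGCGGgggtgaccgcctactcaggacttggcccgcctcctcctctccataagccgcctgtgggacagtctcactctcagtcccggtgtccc
Alox5 promoter window (chr6:116461129-116461428, - strand): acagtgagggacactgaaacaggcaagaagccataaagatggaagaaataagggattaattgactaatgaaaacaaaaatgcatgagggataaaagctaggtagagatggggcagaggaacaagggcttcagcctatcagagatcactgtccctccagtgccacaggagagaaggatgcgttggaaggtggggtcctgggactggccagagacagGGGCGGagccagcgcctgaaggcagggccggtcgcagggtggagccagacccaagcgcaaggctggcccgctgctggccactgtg
In the Ptgs2 window the C/EBP palindrome began at −69 from the start and the GC box at −170. The cyclic AMP response element core lay on the other strand from base 263 to 268 of the window and shared bases 267 and 268 with the E-box, so that both stand in 1 run of capitals. The Ptges window held a GC box at −53 and another at −42, and the Alox5 window held 1 GC box at −35. Of 32851 windows of the same length in the RefSeq table, 0.183% held TTGCGCAA, 7.51% TGACGT, 7.15% CACGTG, 35.7% GGGCGG, 5.82% GGNNTTTCC and 13.6% TATAAA. Windows were found for 9 of the 10 members (not for Alox5ap), and among these TTGCGCAA was in 1, GGGCGG in 4 and GGNNTTTCC in 1, that of Ltc4s. A longer form of the NF-kB motif, searched first, was in 0 of the 9 and in 4.79% of all windows. A match is a run of letters and not a shown binding site. Sequence outside the windows was not searched, so the lack of a match holds for these windows alone.

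The levels below rest on whole read counts worked out from the deposited ratios and p-values, as described under processing. The listed genes held about 35073531 (KO) and 36017598 (WT) reads in stimulated cells, and 38358032 (KO) and 33493624 (WT) in unstimulated cells. Golm1, the targeted gene, had 25.0% of the WT level in the stimulated KO library and 23.5% in the unstimulated one. The dendritic cell gene Itgax had 16609 reads in KO and 13976 in WT stimulated cells, and 21571 in KO and 15101 in WT unstimulated cells; of the 8 dendritic cell markers examined, Cd209a had no row. Levels are CPM, read counts scaled to the total of the listed genes. Each ratio is KO over WT on the log2 scale, centred on the zero point of the authors' p-values, and ± is the counting standard error (SE). That error covers the sampling of reads and not the spread between cultures. A difference was taken as beyond counting error where the Benjamini-Hochberg adjusted p, from the authors' deposited p-values over all genes of the table, was under 0.001; such a call compares 2 libraries and not the genotypes.

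The comparison of KO with WT asks what loss of GOLPH2 does to these transcripts in each state. The KO library had more Alox5 in both states, at 1.35-fold in stimulated and 1.33-fold in unstimulated cells. In both states the KO library had less Ptgs2 and Ptges, with Ptgs2 at 0.892-fold in stimulated and 0.698-fold in unstimulated cells. In unstimulated cells Ptger2 and Alox5ap were lower as well. The remaining 5 members, Pla2g4a, Ptgs1, Lta4h, Ltc4s and Ptger4, did not pass in either state. In such bulk libraries, fewer cells of a type and less RNA per cell cannot be told apart.

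In counts, 1 of the 10 members was higher in the KO library of stimulated cells and 2 were lower, while 5.36% of the 15310 genes in that table were higher and 6.54% lower. In unstimulated cells 1 of 10 was higher and 4 were lower, against 4.7% higher and 4.27% lower of the 15394 genes in the table. Past the threshold in both states were 1 member on the higher side and 2 on the lower side, where 2.96% and 2.23% of the 14823 genes in both tables were. None of the 10 members passed that threshold and was also 1.5-fold apart on the centred scale, against 1.02% of genes in stimulated and 0.708% in unstimulated cells. The median ratio of the members was −0.03 in stimulated and −0.05 in unstimulated cells, beside 0.01 and 0.00 over all genes. All 10 members had counting errors below that of 50 reads per library, while the shares over all genes also take in less precise genes. The members were chosen with earlier results of these data known, so setting their counts beside these shares is no test. The authors' deposited table of unstimulated cells marks 1 of the 10, Alox5, as differentially expressed, on the uncentred ratio. That of stimulated cells marks 0 of the 10. The share of all genes marked in this way was not counted.

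**Figure D1:**
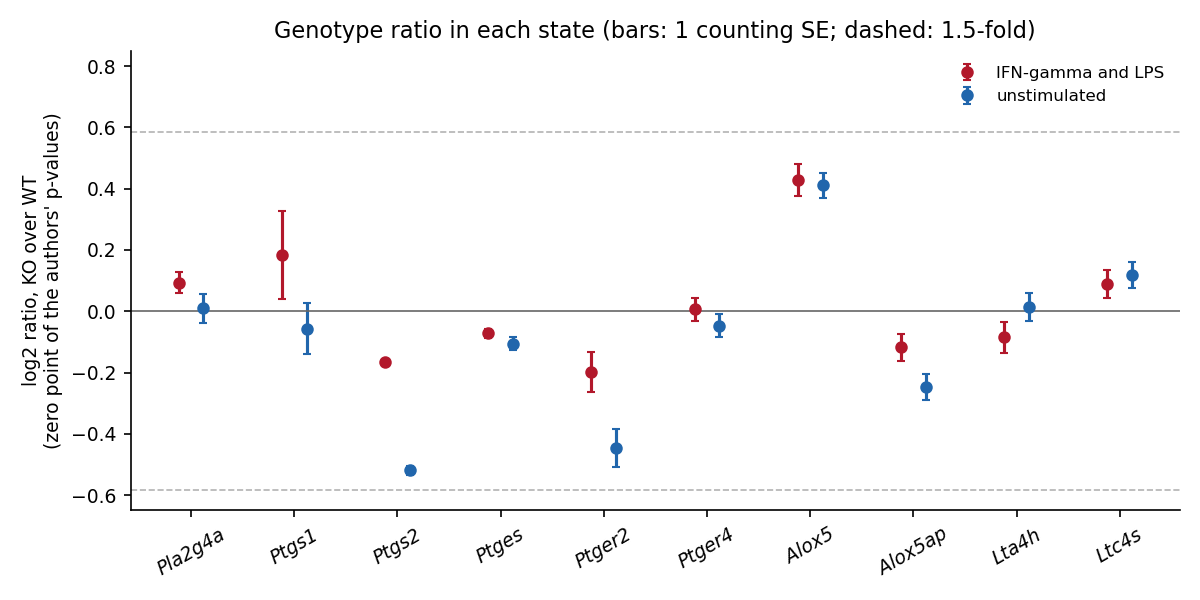
Log2 ratio of KO over WT (vertical axis) for each of the 10 genes in stimulated (red) and unstimulated (blue) cells; points are single ratios of 1 KO and 1 WT library, bars are 1 counting SE and dashed lines mark 1.5-fold. Alox5 lies above 0.4 in both states, Ptgs2 lies at −0.16 in stimulated and −0.52 in unstimulated cells, and no point reaches a dashed line.

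Release of arachidonic acid was represented by Pla2g4a (chromosome 1, 149829618 to 149961290, GRCm38), which encodes the cytosolic phospholipase A2. It had 100.3 CPM in KO and 94.0 CPM in WT stimulated cells, and 52.6 CPM in KO and 52.3 CPM in WT unstimulated cells. Its ratio was 0.09 ± 0.03 in stimulated cells (adjusted p = 0.0360) and 0.01 ± 0.05 in unstimulated cells, neither beyond counting error. The stimulated libraries stood above the unstimulated ones in both genotypes.

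Cyclooxygenase 2, which makes the precursor of prostaglandins in activated cells, is encoded by Ptgs2 (chromosome 1, 150100031 to 150108227). The stimulated KO library had 92651 reads and the WT library 106438, or 2639.5 and 2958 CPM. In unstimulated cells there were 19423 reads in the KO and 24388 in the WT library, or 507 CPM in KO and 727 CPM in WT. The KO level was below WT in both states, and the gap was wider without stimulation: the ratio was −0.16 ± 0.0065 in stimulated and −0.52 ± 0.014 in unstimulated cells. In unstimulated cells its −log10 p lies at the highest value deposited, so its read counts were inferred from the ratio and from the place of Ptgs2 in the table, which brackets the WT count between 23591 and 25545. In that bracket 1 pair of whole numbers gives the deposited ratio; without the bracket, at least 6230 KO and 7823 WT reads are needed to reach that p. The ratio itself does not depend on this step, while its SE does. The lower end of the bracket rests on inferred counts of the next gene, Socs3, and the upper end on an assumed largest normal deviate. Both assume that genes at the highest value stand in order of p. Of the 36 genes from Ptgs2 to the last of them, the longest falling run of normal deviates held 20. That run took each ratio in its smallest whole numbers.

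Ptgs1 (chromosome 2, 36230426 to 36252272) encodes the constitutive cyclooxygenase 1. Its levels were 6.15 CPM in KO and 5.42 CPM in WT stimulated cells, and 16.2 CPM in KO and 16.8 CPM in WT unstimulated cells, from 195 to 619 reads. The ratios of 0.18 ± 0.14 and −0.06 ± 0.08 were not beyond counting error, and both stimulated libraries lay below both unstimulated ones.

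Downstream of the cyclooxygenases, Ptges (chromosome 2, 30889471 to 30929863) encodes the inducible prostaglandin E synthase. It had 548 CPM in KO and 577 CPM in WT stimulated cells, and 236 CPM in KO and 253 CPM in WT unstimulated cells. The KO library was lower in both states by a small amount, −0.07 ± 0.014 in stimulated (adjusted p = 7.84e-06) and −0.11 ± 0.022 in unstimulated cells (adjusted p = 1.98e-05). As deposited, without centring, the unstimulated ratio was 0.09, on the higher side. Under Bonferroni adjustment Ptges did not pass 0.001 in either state (0.00936 in stimulated and 0.0190 in unstimulated cells).

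The receptors for prostaglandin E2 were followed as Ptger2 and Ptger4, which encode EP2 and EP4, both coupled to the rise of cyclic AMP. Ptger2 (chromosome 14, 44988195 to 45003820) had 26.0 CPM in KO and 29.8 CPM in WT stimulated cells, and 25.4 CPM in KO and 34.6 CPM in WT unstimulated cells. It was lower in the unstimulated KO library, at −0.45 ± 0.063 (adjusted p = 3.05e-11), and stood at −0.20 ± 0.065 in stimulated cells, with an adjusted p of 0.0130 that misses the threshold. The WT unstimulated library had the highest Ptger2 level of the 4.

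Ptger4 (chromosome 15, 5206661 to 5244187) kept a narrow range across the libraries. It had 83.3 CPM in KO and 82.9 CPM in WT stimulated cells, and 83.4 CPM in KO and 86.2 CPM in WT unstimulated cells. The ratios of 0.01 ± 0.04 and −0.05 ± 0.04 were within 1.5 counting errors of 0.

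On the leukotriene side, Alox5 (chromosome 6, 116410077 to 116461178) encodes 5-lipoxygenase, which makes leukotriene A4. Its levels were 48.3 CPM in KO and 35.9 CPM in WT stimulated cells, and 78.6 CPM in KO and 59.1 CPM in WT unstimulated cells. The KO library was higher in each state, with ratios of 0.43 ± 0.053 in stimulated (adjusted p = 1.82e-14) and 0.41 ± 0.041 in unstimulated cells (adjusted p = 1.46e-21). These are the highest ratios among the 10 members in either state.

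Alox5ap (chromosome 5, 149264767 to 149288153) encodes FLAP, the protein that presents arachidonic acid to 5-lipoxygenase. It had 57.9 CPM in KO and 62.9 CPM in WT stimulated cells, and 60.8 CPM in KO and 72.2 CPM in WT unstimulated cells. The ratio was −0.25 ± 0.042 in unstimulated cells (adjusted p = 7.59e-08), where the KO library was lower, and −0.12 ± 0.044 in stimulated cells (adjusted p = 0.0366), which did not pass. Alox5 and its partner had ratios of opposite sign.

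The enzymes after leukotriene A4 were Lta4h, which makes leukotriene B4, and Ltc4s, which makes leukotriene C4. Lta4h (chromosome 10, 93453411 to 93484875) had 43.7 CPM in KO and 46.3 CPM in WT stimulated cells, and 54.7 CPM in KO and 54.2 CPM in WT unstimulated cells. Its ratios were −0.09 ± 0.05 and 0.01 ± 0.05. Ltc4s (chromosome 11, 50236461 to 50238616) had 59.5 CPM in KO and 55.9 CPM in WT stimulated cells, and 62.3 CPM in KO and 57.4 CPM in WT unstimulated cells. Its ratios were 0.09 ± 0.05 and 0.12 ± 0.04, and neither gene passed in either state.

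**Figure D2:**
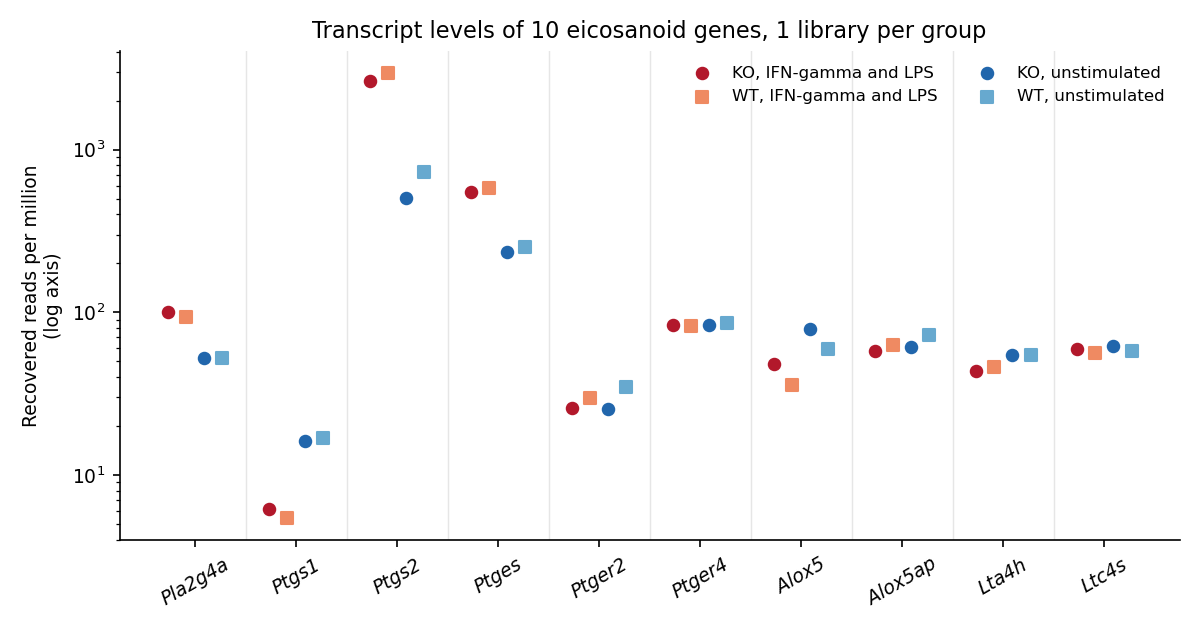
CPM (log axis) of the 10 genes in the 4 libraries, KO as circles and WT as squares, stimulated in red and unstimulated in blue, 1 library per group with no error bars. Ptgs2 and Ptges have the highest levels in every library, and the stimulated libraries sit above the unstimulated ones for Pla2g4a, Ptgs2 and Ptges and below them for Ptgs1 and Alox5.

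Per kilobase of the gene's exons in GENCODE M21, a length that the authors' counting may not have used, Ptgs2 was the highest of the 10 in every library, at 576 CPM per kilobase in KO and 646 in WT stimulated cells. Ptges came next in stimulated cells, with 140 CPM per kilobase in KO and 147 in WT, followed by Ltc4s (58.6 in KO and 55.2 in WT) and Alox5ap (40.8 in KO and 44.3 in WT). Ptgs1 was the lowest in every library, at 1.58 CPM per kilobase in KO and 1.40 in WT stimulated cells and 4.16 in KO and 4.33 in WT unstimulated cells. In unstimulated cells Ptges and Ltc4s were close, at 59.9 and 61.5 CPM per kilobase in KO and 64.5 and 56.7 in WT, and their order changed between genotypes. Several members share ground with other genes: Ptger4 overlaps the protein-coding gene Ttc33, and Ltc4s, Alox5ap and Ptger2 overlap antisense genes, each on the opposite strand. Ptgs1 overlaps Gm43621, also on the opposite strand. The strand setting of the counting was not stated, so reads from such a partner could be in these values. Ptges overlaps the processed pseudogene Gm13400 on the same strand, which no strand setting would set apart.

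The genotype difference was then taken over both states, with the states as repeats and the gap between them as error (limma, 10986 genes at least as precise as 50 reads per library). In that fit 0 of the 10 members had an adjusted p under 0.05, and of all genes 1 was higher and 1 lower (0.0182% in either direction). At an unadjusted p under 0.05 in limma, 4 of the 10 members passed (Alox5, Ptger2, Ptgs2 and Alox5ap), beside 17.9% of all genes. Alox5 had a mean ratio of 0.42 (SE 0.053, limma adjusted p = 0.0941) and Ptgs2 one of −0.34 (SE 0.10, limma adjusted p = 0.218). A variance trend on the counting error, added after this result was seen, gave 3 of 10 members with a limma adjusted p under 0.05, beside 8.54% of all genes. These were Alox5 (limma adjusted p = 0.000385), Ptgs2 (0.00528) and Ptger2 (0.0115), while Alox5ap had 0.0535. The call for these genes therefore rests on the variance model, and 2 states of 1 library each are all that either fit has. Whether both states of a genotype came from the same mice is not known. If they did, a difference between cultures could repeat in both states and would not enter the error. The p-values of either fit therefore cannot be taken to measure the spread between cultures of a genotype.

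**Figure D3:**
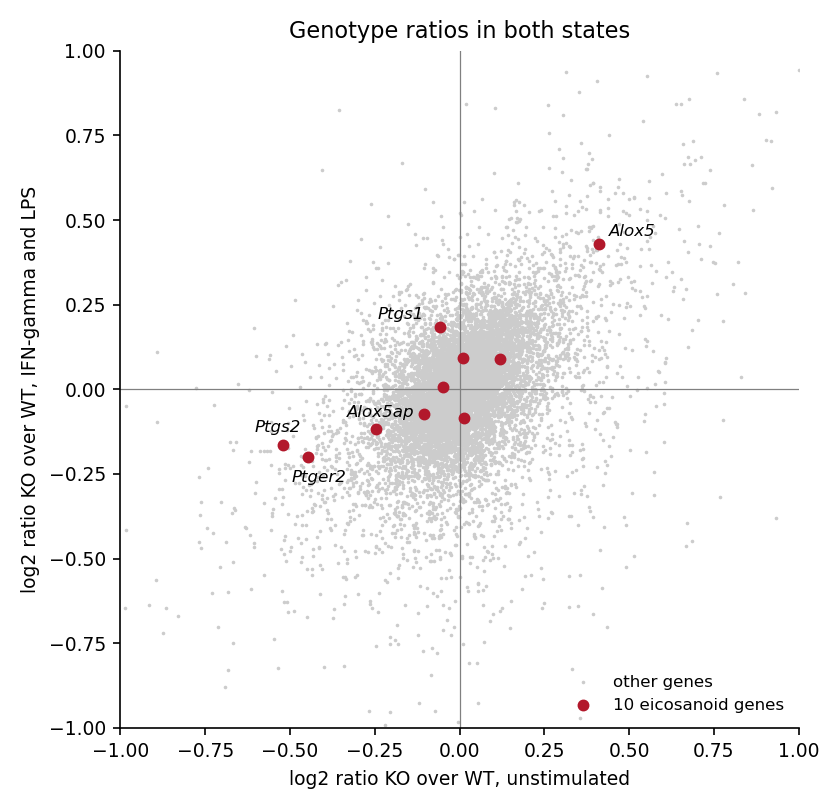
Log2 ratio of KO over WT in stimulated cells (vertical axis) against unstimulated cells (horizontal axis) for 10986 genes, of which 33 fall outside the axes; grey points are other genes and red points the 10 members. Alox5 lies on the upper right at 0.43 and 0.41, and Ptger2, Ptgs2 and Alox5ap lie on the lower left.

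Whether the genotype ratio differed between the states can be given as values only. For Ptgs2 the ratio was 0.36 ± 0.015 higher in stimulated than in unstimulated cells, and this gap was 0.13 with the ratios as deposited. Ptger2 had a difference of 0.25 ± 0.090, Ptgs1 one of 0.24 ± 0.17 and Alox5ap one of 0.13 ± 0.061. On the centred scale the differences of Ptgs1 and of the other 6 members were within 1.5 counting errors of 0. That of Alox5 was 0.02 ± 0.067. These values hang on the zero points of the ratios. As deposited, the difference was 0.02 for Ptger2, 0.01 for Ptgs1 and −0.10 for Alox5ap. On the same deposited scale it was −0.33 for Lta4h, −0.26 for Ltc4s, −0.21 for Alox5, −0.19 for Ptges, −0.17 for Ptger4 and −0.14 for Pla2g4a.

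The comparison of stimulated with unstimulated cells of one genotype asks how IFN-gamma and LPS alter the pathway; it was added once the read counts were in hand. Ptgs2 was 5.20-fold higher in stimulated KO cells and 4.07-fold higher in stimulated WT cells. Ptges was 2.33-fold higher in KO and 2.27-fold higher in WT, and Pla2g4a 1.90-fold and 1.80-fold. Ptgs1 went the other way and was lower after stimulation, at 0.381-fold in KO and 0.322-fold in WT cells.

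On the log2 scale of CPM, Ptgs2 differed by 2.38 ± 0.011 in KO and 2.02 ± 0.010 in WT cells, values that rest on its inferred unstimulated counts. Ptges differed by 1.22 ± 0.018 in KO and 1.19 ± 0.019 in WT, and Ptgs1 by −1.39 ± 0.11 in KO and −1.63 ± 0.12 in WT. In each genotype 2 members were at least 2-fold higher after stimulation and 1 was at least 2-fold lower. Of 11221 genes with a mean of 50 or more reads per library, 2.56% were 2-fold higher and 1.51% lower in KO cells, and 3.11% higher and 1.6% lower in WT cells. The median of these genes was −0.13 in KO and also −0.13 in WT.

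Leukotriene genes were lower or little moved in stimulated cells. Alox5 was at −0.70 ± 0.044 in KO and −0.72 ± 0.052 in WT, Lta4h at −0.32 ± 0.048 in KO and −0.23 ± 0.049 in WT, Alox5ap at −0.07 ± 0.044 in KO and −0.20 ± 0.042 in WT, and Ltc4s at −0.07 ± 0.043 in KO and −0.04 ± 0.046 in WT. The receptor gene Ptger2 was at 0.03 ± 0.067 in KO and −0.21 ± 0.061 in WT, and Ptger4 was at −0.003 ± 0.037 in KO and −0.06 ± 0.038 in WT. No test of the state with both genotypes as repeats was run, so these are values with counting error only.

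**Figure D4:**
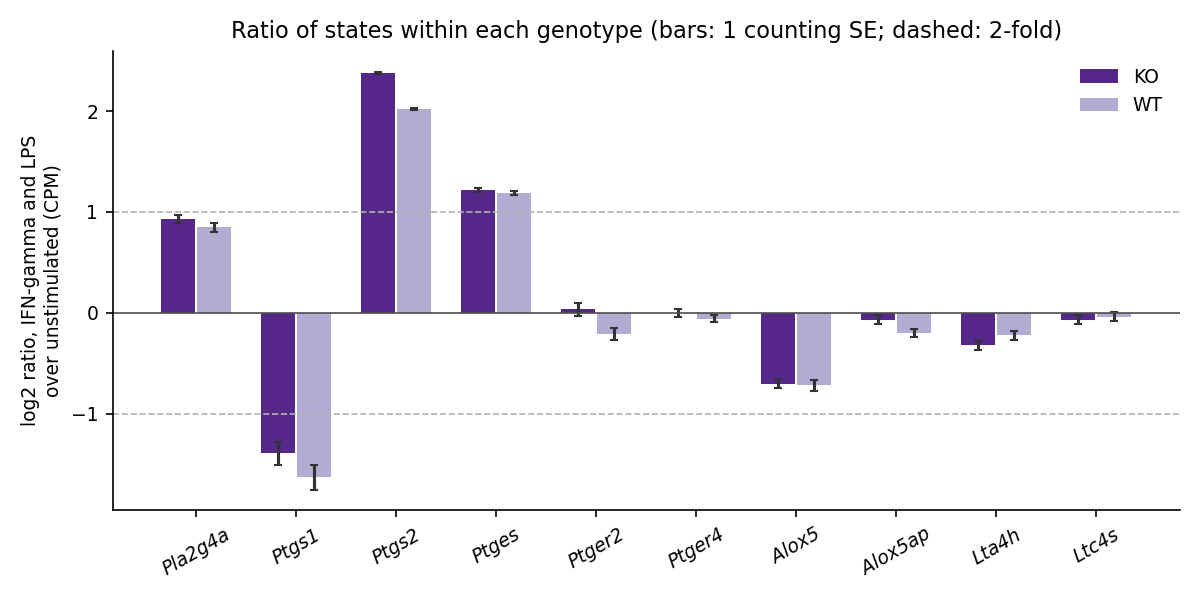
Log2 ratio of stimulated over unstimulated CPM (vertical axis) for each gene in KO (dark, left) and WT (light, right) cells; bars are 1 counting SE and dashed lines mark 2-fold. Ptgs2 and Ptges lie above the upper line and Ptgs1 below the lower line in both genotypes.

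Around the 10 members, 68 further genes of the pathway in 5 lists were examined, of which 59 were in at least 1 table. None was beyond counting error and also 1.5-fold apart in either state, against 1.02% of all genes in stimulated and 0.708% in unstimulated cells. The counts of these 5 lists stand beside 5.36% of all genes higher and 6.54% lower in stimulated cells. In unstimulated cells 4.7% of all genes were higher and 4.27% lower. Of the phospholipase and arachidonate supply genes, 5 of 18 were higher and 1 lower in the stimulated KO library, and 3 of 19 higher and 2 lower in the unstimulated one. The list medians were 0.00 in both states, and Pla2g12a, a secreted phospholipase, was at 0.30 ± 0.074 in stimulated and 0.30 ± 0.072 in unstimulated cells, higher in both. Pla2g15, a lysosomal phospholipase, was likewise higher, at 0.34 ± 0.037 in stimulated and 0.22 ± 0.034 in unstimulated cells. Anxa1, an inhibitor of phospholipase A2, was at −0.21 ± 0.016 in stimulated and −0.21 ± 0.018 in unstimulated cells, lower in both. Lpcat2, which makes platelet-activating factor, was at −0.42 ± 0.069 in unstimulated cells, and Mgll, which releases arachidonate from a neutral lipid, at 0.29 ± 0.034 in stimulated cells. Acsl4, which loads arachidonate onto coenzyme A, was higher in both states (0.13 ± 0.027 and 0.11 ± 0.026).

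Of the prostanoid synthase and breakdown genes, 0 of 13 were higher and 1 lower in stimulated cells, and 0 of 14 higher and 3 lower in unstimulated cells, with medians of −0.04 and 0.06, or −0.02 and 0.00 over the 10 genes of each state that were at least as precise as 50 reads per library. Abcc4, which exports prostaglandin E2, was lower in both states, at −0.50 ± 0.062 in stimulated and −0.47 ± 0.067 in unstimulated cells. Ptgr1, a reductase of prostaglandins and leukotriene B4, and the synthase gene Ptges3 were lower in unstimulated cells alone (−0.43 ± 0.052 and −0.19 ± 0.035), and whether that differs from the stimulated state was not tested. In the list of other prostanoid receptors 0 of 3 and 0 of 5 passed, and Ptger1 and Ptgir were the ones with more than 10 reads.

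The other leukotriene and lipoxygenase enzymes had 1 of 15 higher and 2 lower in stimulated and 1 of 15 higher and 1 lower in unstimulated cells, with medians of −0.31 and −0.07. Over the genes at least as precise as 50 reads per library, these medians were −0.20 (8 genes) and −0.04 (7 genes). Abcc1, the exporter of leukotriene C4, was lower in both states (−0.28 ± 0.020 and −0.31 ± 0.022), and Cotl1, a partner of 5-lipoxygenase, higher in both (0.13 ± 0.020 and 0.07 ± 0.018). Cyp4f18, a leukotriene B4 hydroxylase, was lower in stimulated cells at −0.52 ± 0.11, and stood at −0.41 ± 0.12 in unstimulated cells (adjusted p = 0.00329). Of the leukotriene and lipoxin receptors, 0 of 6 were higher and 1 lower in stimulated cells, and 1 of 6 higher and 1 lower in unstimulated cells. Fpr2, a receptor for lipoxin and formyl peptides, was at −0.23 ± 0.030 in stimulated and −0.51 ± 0.057 in unstimulated cells, while Ltb4r1, the leukotriene B4 receptor, was at 0.42 ± 0.12 in stimulated cells (adjusted p = 0.00481, which misses the threshold) and at 0.42 ± 0.079 in unstimulated cells, where it was higher.

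**Figure D5:**
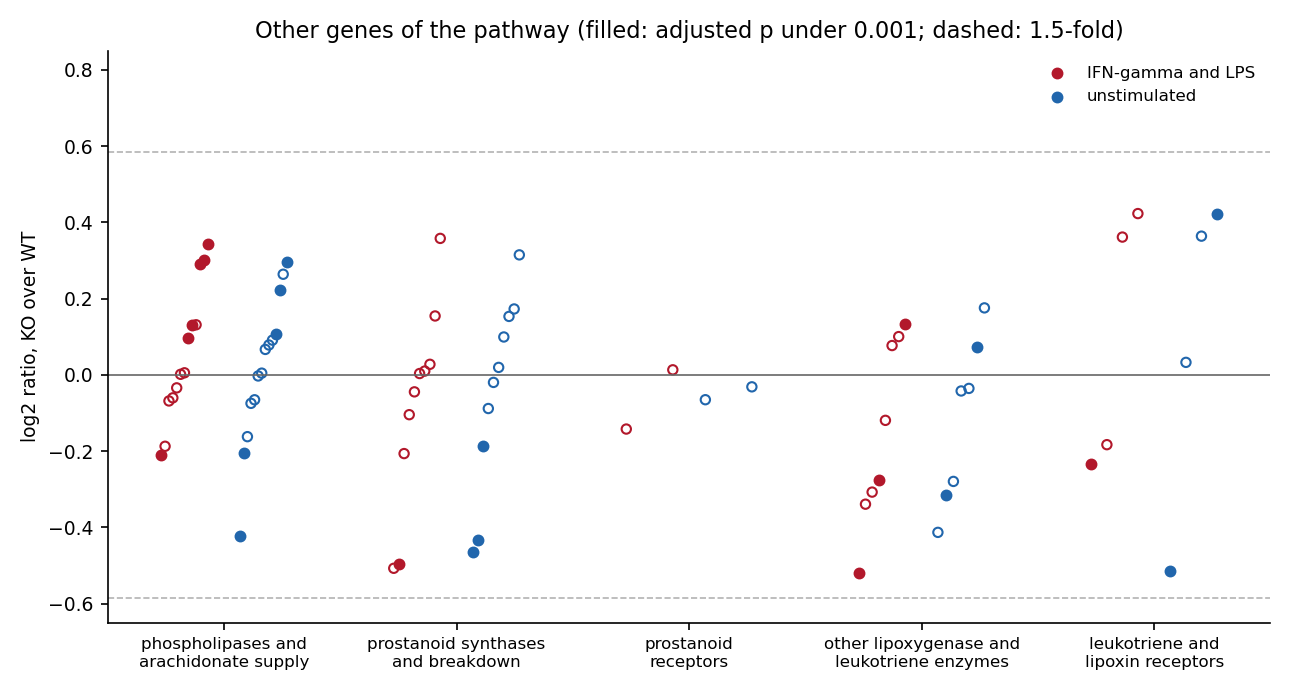
Log2 ratio of KO over WT (vertical axis) for the other pathway genes that were at least as precise as 50 reads per library, in 5 lists, stimulated in red and unstimulated in blue; filled points had an adjusted p under 0.001 and dashed lines mark 1.5-fold. No point reaches a dashed line, and the filled points lie on both sides of 0 in the phospholipase list.

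Lists of markers of dendritic cells and of other cells also held genes that differed beyond counting error between a KO and a WT library. Over all genes the shares were 5.36% higher and 6.54% lower in stimulated cells, and 4.7% higher and 4.27% lower in unstimulated cells. Past 1.5-fold as well were 1.02% of all genes in stimulated and 0.708% in unstimulated cells. Of 10 stromal genes, 6 were higher and 1 lower in the stimulated KO library, with summed levels of 155 CPM in KO and 89.3 CPM in WT, and 4 were higher in the unstimulated one, with 114 CPM in KO and 80.7 CPM in WT. Col3a1, a collagen gene, had 226 reads in KO and 3 in WT stimulated cells and 38 in KO and 4 in WT unstimulated cells. Col1a2 and Fn1 were also past 1.5-fold on the higher side in both states, Col1a1 and Sparc in stimulated cells, and Pdgfrb on the lower side in stimulated cells (−0.74 ± 0.15). Macrophage and monocyte genes summed to 2038 CPM in KO and 1927 CPM in WT stimulated cells, and 2123 CPM in KO and 2061 CPM in WT unstimulated cells, with 5 of 9 higher and 1 lower in each state. C1qb and C1qc were past 1.5-fold on the higher side in both states and Fcgr1 in unstimulated cells. Csf1r stood on the lower side in both states. It had 426 CPM in KO and 472 CPM in WT stimulated cells, and 496 CPM in KO and 597 CPM in WT unstimulated cells. Dendritic cell genes summed to 2676 CPM in KO and 2462 CPM in WT stimulated cells, and 2509 CPM in KO and 2256 CPM in WT unstimulated cells, with 4 and 5 of 7 higher and Clec10a past 1.5-fold in both.

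Neutrophil genes summed to 373 CPM in KO and 423 CPM in WT stimulated cells, and 266 CPM in KO and 333 CPM in WT unstimulated cells, with 1 of 7 and 2 of 8 lower. On this list Lcn2 had 10298 reads in KO and 12439 in WT stimulated cells and 6503 in KO and 7351 in WT unstimulated cells, lower in both, and Mmp8 had 2226 in KO and 2179 in WT stimulated cells and 3274 in KO and 3406 in WT unstimulated cells, lower in the unstimulated KO library. S100a8 and Csf3r had 145 to 333 reads per library, Mpo, Ltf and Camp had at most 21, and Elane and Ly6g had no row. Mast cell, basophil and eosinophil genes, of which mast cells are a known source of leukotriene C4, summed to 352 CPM in KO and 387 CPM in WT stimulated cells, and 133 CPM in KO and 159 CPM in WT unstimulated cells. Hdc was lower in both states and made up 335 CPM of that sum in KO and 370 CPM in WT stimulated cells, and 115 CPM in KO and 141 CPM in WT unstimulated cells. Kit had 261 reads in KO and 326 in WT stimulated cells and 444 in KO and 442 in WT unstimulated cells. In CPM, Kit had 7.44 in KO and 9.06 in WT stimulated cells, and 11.6 in KO and 13.2 in WT unstimulated cells. Gata2 had 316 reads in KO and 288 in WT stimulated cells and 208 in KO and 167 in WT unstimulated cells. Mcpt8, Cpa3 and Cma1 had at most 8 reads or no row. Lymphocyte genes summed to 8.32 CPM in KO and 5.08 CPM in WT stimulated cells, and 10.9 CPM in KO and 6.14 CPM in WT unstimulated cells, with Gzma higher in unstimulated cells. Endothelial genes had 2 and 1 of 6 lower, and platelet genes had 1 of 5 higher in stimulated and 0 of 6 in unstimulated cells. The part of any of these in the ratios of the 10 members was not tested.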

How the data were processed

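Libraries of KO and WT BMDCs were compared in 2 states, with 1 library per group and groups taken from the sample titles. The tools were FastQC 0.10.1 and HTSeq 0.6.0 with build mm10, per the submitters' processing notes. Not given in the sources used here: aligner, annotation, strand setting, scaling and test. The authors deposited 2 tables of log2 fold changes, KO over WT, per the file headers. They also deposited p-values as −log10 p, per the file headers and the values, with a highest value of 100 in unstimulated and 150 in stimulated cells.

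Read counts were derived here, after the data were seen, and are not the authors' values. The deposited ratios are ratios of whole numbers, and the deposited p-values follow a normal test of the ratio that holds counting error only. Ratio and p together gave whole reads, within 0.05 of a whole multiple, for 99.6% of genes in unstimulated and 99.7% in stimulated cells. The 51 and 50 genes at the highest value are less certain. Ratios were reduced by the zero point of the p-values, 0.19 in unstimulated and −0.04 in stimulated cells. Counting error limits each level's precision; the SE is the centred ratio over the normal deviate of p.

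The 10 members and all lists were chosen with earlier results of these data known. The text names all 10 members, Golm1, the other pathway genes past the fixed rules (those past both rules, otherwise the most extreme genes that passed) and markers. The plan assumed no counts per library, so levels and the comparison of states were added, as was the variance trend in limma. Alternatives changed the zero point, threshold, adjustment, fold and precision filter. Python 3.11.15, scipy 1.17.1, R 4.3.3 and limma 3.58.1 were used, and the procedure was run on simulated data. There 99.97% of the whole counts recovered were right for the unstimulated and 99.99% for the stimulated comparison. The simulated p-values were made with the same form of test that the recovery assumes. That run therefore cannot show that the authors' test has this form.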

Additional observations from a re-analysis of the deposited data

How the results depend on the processing

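Centring the ratios of KO over WT on the median gene changed no count of members. With the ratios of stimulated over unstimulated cells centred on their median, 3 members were at least 2-fold higher in KO cells in place of 2. The added member was Pla2g4a, at 1.06 (log2). In WT cells 2 stayed higher, and 1 stayed lower in each genotype. Shares of all genes under this centring are not given here. With the ratios as deposited, every ratio shifts by its zero point, while the p-values remain those of the distance from that point. Ptges in unstimulated cells turned to 0.0857 (log2). By the sign of the deposited ratio, 2 members were higher there in place of 1 and 3 lower in place of 4. The member that changed side was Ptges, whose p places it below the zero point, so this is no call of a higher level. On the deposited scale 1 member (Alox5) passed 1.5-fold there in place of 0. In unstimulated cells the deposited ratio of every gene lies 0.19 above its centred one, which favours the higher side. Shares of all genes under this sign rule, or past 1.5-fold on the deposited scale, were not counted. These member counts therefore have nothing to be set beside. At an adjusted p under 0.05, 2 members were higher and 4 lower in stimulated cells (10.2% and 11.7% of all genes), and 2 higher and 4 lower in unstimulated cells (9.36% and 8.5%). Bonferroni adjustment left 1 lower member in stimulated cells, Ptgs2 (3.76% of genes), and 3 in unstimulated cells (2.42%), so that Ptges was lost in both states. A size rule of 1.2-fold gave 1 higher and 0 lower members in stimulated cells (1.74% and 2.86%) and 1 higher and 2 lower in unstimulated cells (1.68% and 1.61%), and 2-fold gave 0. In limma over both states the main fit called 1 gene higher and 1 lower, with 1962 genes at an unadjusted p under 0.05. The counts were 142 and 31 with ratios as deposited, 0 and 0 centred on the median gene (1901 unadjusted) and 0 and 0 without the precision filter (1518 unadjusted), with 0 of 10 members in each. The added variance trend called 484 and 454 genes and 3 of 10 members. No paired analysis was possible because no group holds replicate numbers beyond 1, beside the pairing by state that the limma fit already has; no replicate could be left out either. Depth limits Ptgs1 most, at 195 to 619 reads per library, and the causes of these differences were not tested.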

Other observations

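Several receptors of the leukotriene and lipoxin list differed between the states. The difference was not tested, and the errors cover counting alone. Fpr2 had 123 CPM in stimulated and 29.9 CPM in unstimulated KO cells, and 145 CPM in stimulated and 42.7 CPM in unstimulated WT cells, a log2 difference of 2.04 ± 0.048 in KO and 1.76 ± 0.043 in WT. Cysltr2, a receptor for cysteinyl leukotrienes, was at 0.93 ± 0.077 in KO and 1.14 ± 0.079 in WT. Other members of the list lay on the lower side. Cysltr1, another such receptor, was lower after stimulation at −1.56 ± 0.16 in KO and −1.56 ± 0.18 in WT, and Ltb4r1 at −1.29 ± 0.097 in KO and −1.29 ± 0.11 in WT. Among synthases, Tbxas1, which makes thromboxane A2, was at −0.80 ± 0.062 in KO and −0.80 ± 0.066 in WT, and Mgst2 at −0.79 ± 0.094 in KO and −0.77 ± 0.086 in WT.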
